A study of Mus musculus with 2 samples.

Results

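The genes described here are 10 Sox transcription factors, Sox1, Sox2, Sox3, Sox21, Sox4, Sox11, Sox12, Sox5, Sox6 and Sox9. They were taken by symbol, matched to the Ensembl identifier without its version, and all 10 were found in both gene tables among 43346 Ensembl genes. The Sox family has 20 measured genes, so these are 10 of 20. The RNA came from dissected midbrain of healthy mouse embryos of strain B6NCrl at embryonic day 16.5, with no transgene and no treatment named in the labels. There was 1 group of 2 biological replicates. Each replicate was a separate pool of male and female embryos, and both pools carry the same donor identifier. Replicate 2 pooled 37 embryos, while no number is stated for replicate 1. Each library was made from 10 ng of RNA longer than 200 nucleotides, to which spike-in RNA was added.

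Sox proteins bind DNA through an HMG box, a domain that bends the double helix, and are sorted into groups by the sequence of that box. In the developing brain SoxB1 proteins (Sox1, Sox2, Sox3) hold neural progenitors in the undifferentiated, proliferating state, and the SoxB2 protein Sox21 opposes them. SoxC proteins (Sox4, Sox11, Sox12) act in young neurons, where they activate neuronal genes, SoxD proteins (Sox5, Sox6) have no activation domain of their own and work with or against other Sox proteins, and the SoxE protein Sox9 acts in radial glia and in the start of gliogenesis.

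Depth was 31830355 expected counts for replicate 1 and 36576263 for replicate 2. Because there is no second condition, nothing can be tested between conditions, so levels are given in each library and as mean ± SD (n = 2), and differences between the pools describe these libraries only. Levels are in TPM (a length-corrected share of all transcripts, with every library brought to 1 common total) unless a count is named, so that genes can be set side by side. Counting intervals are at 95%, account for counting error alone and treat every read as independent. Reads that carry no molecular identifier may be copies of 1 molecule, so these intervals may be too narrow. Of the midbrain territory list, 7 of 8 genes reached 1 TPM in both libraries, led by Gata3 (71.4 and 77.2) and Otx2 (56.3 and 64.5), while En2 stayed below 1. Among genes of neighbouring territories, the forebrain gene Tbr1 was at 2.80 and 2.00, and the hindbrain genes Hoxa2, Hoxb2, Hoxb3, Hoxb4 and Egr2 were below 1 in both.

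SoxC genes gave most of the TPM of the 10 Sox genes, and Sox11 alone exceeded the other 9 together in both libraries. The groups summed to 536.2 and 450.9 TPM for SoxC (494 ± 60.3), 46.8 and 42.6 for SoxD (44.7 ± 2.98), 35.9 and 38.3 for SoxE (37.1 ± 1.72), 19.3 and 12.2 for SoxB1 (15.7 ± 5.0) and 5.43 and 6.68 for SoxB2 (6.06 ± 0.884). SoxC therefore held 82.6% ± 1.01 of the TPM of the 10 genes, SoxD 7.50% ± 0.326, SoxE 6.26% ± 0.977, SoxB1 2.60% ± 0.551 and SoxB2 1.03% ± 0.261. In a whole tissue, a difference in the number of cells of a type and a difference in the RNA per cell cannot be told apart.

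From the highest mean level to the lowest the order was Sox11, Sox4, Sox9, Sox5, Sox2, Sox12, Sox6, Sox21, Sox1 and Sox3. The ranges over the 2 libraries overlapped for Sox9 and Sox5, for Sox2 and Sox12 and for Sox12 and Sox6, so these neighbours did not differ beyond their spread. The other 6 neighbouring pairs were apart in both libraries, by 1.65-fold for Sox6 over Sox21 up to 3.74-fold for Sox21 over Sox1. The pair Sox5 and Sox2 turned when only full-length coding transcripts were summed: Sox5 was then at 7.95 and 5.38 TPM, below Sox2 at 16.4 and 10.2, and 4 of the 10 genes changed place. At least 1 TPM in both libraries was reached by 9 of the 10 genes, against 62.1% of 21474 protein-coding genes, and at least 10 TPM by 6 of them, against 41.2%. Sox3 alone missed the lower level.

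**Figure D1:**
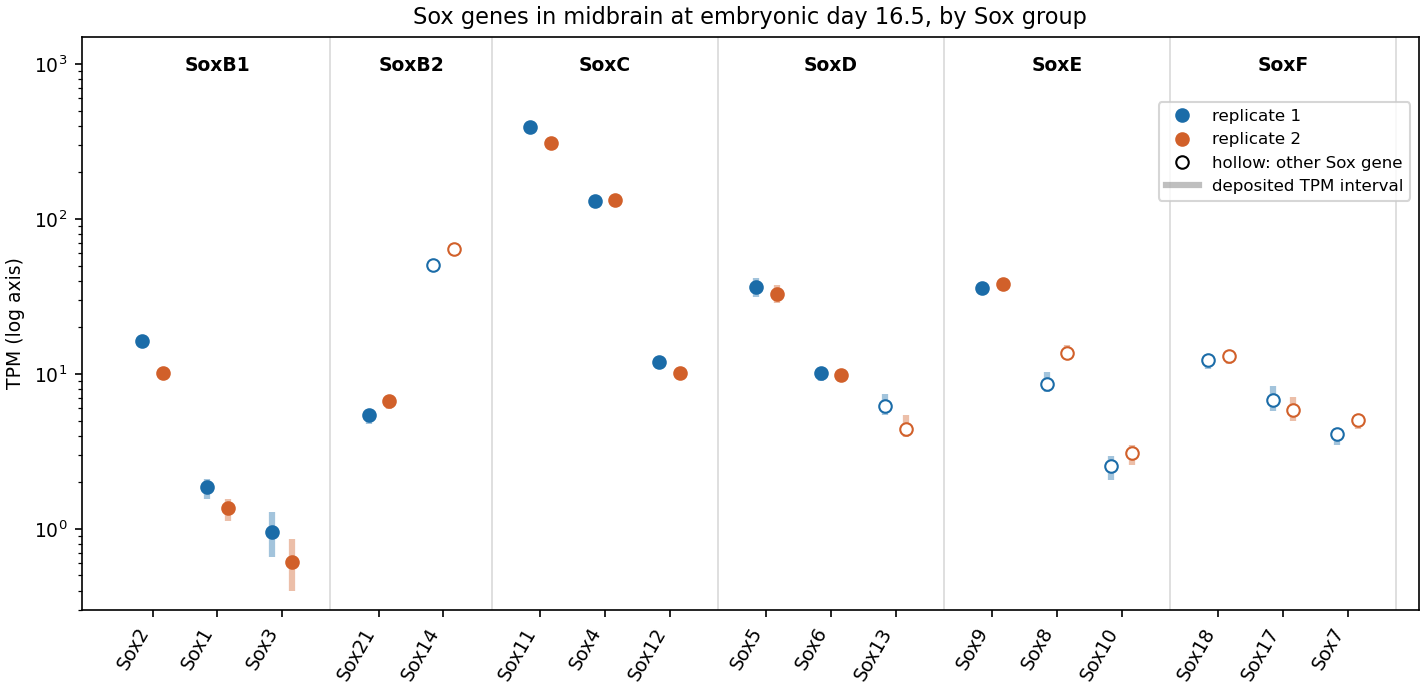
TPM on a log axis of the Sox genes of groups B to F in replicate 1 (blue) and replicate 2 (orange), with the deposited credibility interval of each TPM as a pale bar; filled points are the 10 genes described and hollow points the other Sox genes. Sox11 (393 and 309) and Sox4 (131 and 132) stand above all others, and within SoxB1 the levels fall from Sox2 (16.4 and 10.2) to Sox3 (0.96 and 0.61).

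Sox11, a single-exon gene on the minus strand at chr12:27334264-27342574 (ENSMUSG00000063632.6, GRCm38), is the SoxC factor best known from newborn neurons. It had 392.9 TPM in replicate 1 and 309.2 in replicate 2 (351 ± 59.2), from 59699 and 54740 expected counts. That places it at percentile 98.6 and 98.0 of all protein-coding genes. Sox4, its close relative with overlapping function, is a single-exon gene at chr13:28948919-28953713 (minus strand, ENSMUSG00000076431.4). Its level was 131.4 and 131.6 TPM (132 ± 0.127), from 11420 and 13326 counts, at percentile 94.1 in replicate 1. Sox11 was thus 2.99-fold above Sox4 in replicate 1 and 2.35-fold in replicate 2. Sox12, the third SoxC gene, whose loss alone is known to have mild effects, lies at chr2:152393611-152398063 (minus strand, ENSMUSG00000051817.8). It reached 11.9 and 10.1 TPM (11.0 ± 1.27) from 946 and 938 counts, and Sox4 was 11.1-fold and 13.0-fold above it. Its unspliced transcript Sox12-202 held 82.6% and 85.6% of its TPM and the 2-exon Sox12-201 the remaining 17.4% and 14.4%, and both carry the same coding sequence in the annotation.

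The 250 bases before the RefSeq start of each SoxC gene are shown because these are the genes that carry most of the Sox RNA, and they can be set against each other by composition. All are RefSeq sequence of GRCm38.p6 on the minus strand, 5′ to 3′, ending at the base before the RefSeq start, from which all distances are counted. RefSeq and the GENCODE models can differ in their starts: the Sox11 window ends 144 bases before the start of the GENCODE model, the Sox4 window runs 14 bases into it, and the Sox12 window ends at the start of Sox12-201 but takes in the first bases of Sox12-202. Capitals mark every match, on either strand, of 5 motifs: the SOX core ACAAT, the CCAAT box CCAAT, the TATA box TATAAA, the GC box GGGCGG and the POU octamer ATTTGCAT. In 32851 RefSeq mouse promoter windows of the same length, 27.7% held the SOX core, 33.8% the CCAAT box, 12.4% the TATA box, 32.7% the GC box and 1.60% the octamer. In the printed windows no match overlapped a match of a different motif.
Sox11, chr12:27342719-27342968: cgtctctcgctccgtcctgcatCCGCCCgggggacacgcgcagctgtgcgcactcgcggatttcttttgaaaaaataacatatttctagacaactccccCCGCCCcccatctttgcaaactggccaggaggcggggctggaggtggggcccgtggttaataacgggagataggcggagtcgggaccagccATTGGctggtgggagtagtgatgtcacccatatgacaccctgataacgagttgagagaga
Sox4, chr13:28953700-28953949: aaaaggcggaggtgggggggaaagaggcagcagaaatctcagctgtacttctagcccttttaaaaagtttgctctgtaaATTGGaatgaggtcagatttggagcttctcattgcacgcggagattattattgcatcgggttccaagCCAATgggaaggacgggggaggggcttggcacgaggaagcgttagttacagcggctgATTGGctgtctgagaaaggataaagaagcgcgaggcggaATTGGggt
Sox12, chr2:152398047-152398296: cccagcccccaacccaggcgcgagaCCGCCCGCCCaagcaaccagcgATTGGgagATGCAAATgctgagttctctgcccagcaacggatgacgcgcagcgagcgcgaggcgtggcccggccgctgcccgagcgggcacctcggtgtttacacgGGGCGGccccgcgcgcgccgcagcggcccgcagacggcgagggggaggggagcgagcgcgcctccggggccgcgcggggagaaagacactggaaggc

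Each of the 3 windows held a CCAAT box and none held the SOX core or the TATA box. The Sox4 window held 4 CCAAT boxes, with their outermost bases 171, 104, 47 and 8 bases before the RefSeq start, and no GC box. The nearest of them lies inside the GENCODE model of Sox4. The Sox11 window had 1 CCAAT box 60 bases before the RefSeq start and 2 GC boxes. The Sox12 window had 1 CCAAT box, 3 GC boxes, of which 2 overlap each other, and 1 POU octamer 195 bases before the RefSeq start, the only octamer in any window of the 8 genes matched. GC content was 50.8% for Sox4, 58.0% for Sox11 and 74.4% for Sox12, against a median of 52.4% over all windows. A match is a description of the letters only.

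Between the pools Sox11 was lower in replicate 2, and so was Sox12, while Sox4 as deposited was not. The log2 ratio of replicate 2 to replicate 1, from counts scaled by TMM (edgeR's trimmed mean of M-values), was -0.31 for Sox11 (counting interval -0.32 to -0.29), -0.20 for Sox12 (-0.33 to -0.06) and 0.04 for Sox4 (0.00366 to 0.0760). The deposited credibility intervals of TPM did not overlap for Sox11 (378 to 384 against 298 to 304) or for Sox12 (10.8 to 12.3 against 9.21 to 10.5). For Sox11 the deposited TPM lies above its own interval, which surrounds the posterior mean of 380.9 and 301.0 TPM.

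The Sox4 values are tied to Gm26735 (ENSMUSG00000097461.1, chr13:28943048-28951671), a long intergenic non-coding RNA gene on the opposite strand that overlaps 2616 of the 4795 exon bases of Sox4. Gm26735 had 4283.6 counts in replicate 1 and 1829 in replicate 2, at 90.8 and 33.3 TPM, so it was 2.66-fold lower in replicate 2 by scaled counts. Neither gene had whole counts, but their sums were exactly 15704 and 15155. Reads in the overlap were therefore divided between the strands by the quantification. Of all reads of the pair, inside and outside the overlap, Gm26735 was assigned 27.3% in replicate 1 and 12.1% in replicate 2. Taking all reads of the pair as Sox4 would give 181 and 150 TPM, and a log2 ratio between the pools of -0.23 (counting interval -0.27 to -0.20), near those of Sox11 and Sox12. Which strand the shared reads came from cannot be read from these tables, so the Sox4 level and its ratio between the pools are uncertain to that extent. Under either count Sox4 was the second of the 10 genes.

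**Figure D2:**
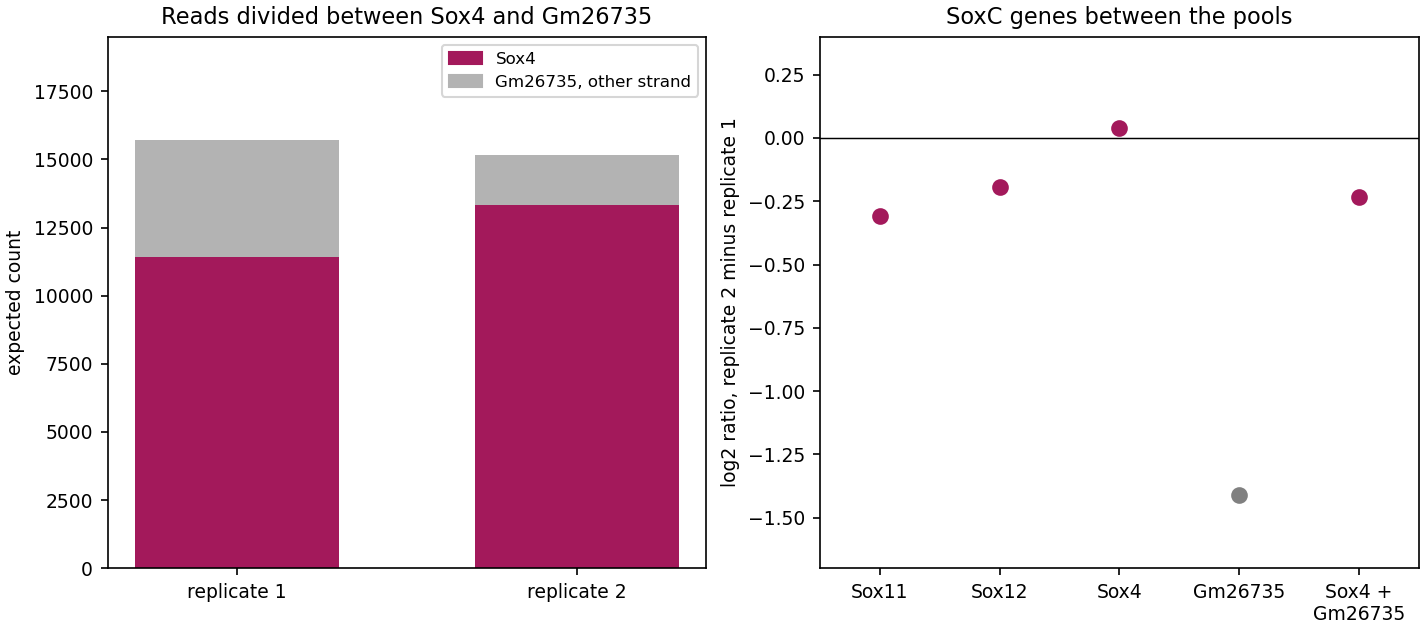
Left, expected counts of Sox4 and of Gm26735 on the other strand, stacked for each library; the stacks reach 15704 and 15155. Right, log2 ratio of replicate 2 to replicate 1 for the SoxC genes, for Gm26735 and for Sox4 with the reads of Gm26735 added: Sox4 moves from 0.04 to -0.23, beside Sox11 at -0.31 and Sox12 at -0.20.

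Among the SoxB1 genes Sox2 was the highest, and all 3 were lower in replicate 2. Sox2, the factor that marks neural stem and progenitor cells, is a single-exon gene at chr3:34650405-34652461 (plus strand, ENSMUSG00000074637.6). It had 16.4 TPM in replicate 1 and 10.2 in replicate 2 (13.3 ± 4.40), from 717 and 519 counts. The deposited tables use a Sox2 model of 2457 bases, and the later annotation used here for coordinates one of 2057 bases. Sox1, a neural SoxB1 factor at chr8:12395295-12400126 (plus strand, ENSMUSG00000096014.1), had 1.87 and 1.37 TPM (1.62 ± 0.354) from 164 and 140 counts. It lies without shared exon bases inside Sox1ot, a non-coding gene on the same strand, which had 2.34 and 2.20 TPM. Sox3, the X-linked SoxB1 gene at chrX:60891366-60893430 (minus strand, ENSMUSG00000045179.9), had 0.96 and 0.61 TPM (0.785 ± 0.247) from only 35 and 26 counts. Sox2 was 8.79-fold and 7.45-fold above Sox1, and 17.1-fold and 16.7-fold above Sox3, so the order within the group was the same in both libraries.

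The SoxB1 sum had a log2 ratio between the pools of -0.60 (counting interval -0.75 to -0.46), which is 1.52-fold lower in replicate 2. Sox2 accounted for most of these reads and stood at -0.65 (-0.81 to -0.48), 1.57-fold lower, with TPM intervals of 14.8 to 17.2 and 9.10 to 10.8. Sox1 stood at -0.41 (-0.75 to -0.08) with overlapping TPM intervals. Sox3 stood at -0.60 (-1.40 to 0.16), an interval that reaches across 0, and a difference was not detectable at this depth. Sox21, the SoxB2 gene at chr14:118233232-118237030 (minus strand, ENSMUSG00000061517.8), went the other way. It had 5.43 TPM in replicate 1 and 6.68 in replicate 2 (6.06 ± 0.884), from 371.8 and 532.5 counts, a log2 ratio of 0.33 (0.14 to 0.53), and its TPM intervals of 4.73 to 5.83 and 5.97 to 7.09 did not overlap. The SoxB1 sum was 3.55-fold above Sox21 in replicate 1 and 1.82-fold in replicate 2.

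Sox21 also shares exon bases, 713 of its 3799, with an opposite-strand non-coding gene, Gm4675 (ENSMUSG00000090534.1). Gm4675 had 73.2 and 77.5 counts, and the pair summed to exactly 445 and 610. With all of these reads taken as Sox21, its level would be 6.50 and 7.65 TPM and its ratio 0.27 (counting interval 0.09 to 0.45), so Sox21 remained higher in replicate 2.

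Promoter windows of Sox2 and Sox21, which moved in opposite directions, are shown with the same motifs in capitals. The Sox2 window is on the plus strand and ends at the RefSeq start, which is 410 bases before the start of the Sox2 model in GENCODE.
Sox2, chr3:34649745-34649994: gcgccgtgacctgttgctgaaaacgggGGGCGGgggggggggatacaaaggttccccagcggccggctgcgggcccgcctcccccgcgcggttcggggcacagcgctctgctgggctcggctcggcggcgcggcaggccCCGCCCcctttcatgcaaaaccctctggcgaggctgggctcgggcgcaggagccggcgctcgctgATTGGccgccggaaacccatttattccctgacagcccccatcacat
Sox21, chr14:118237031-118237280, minus strand: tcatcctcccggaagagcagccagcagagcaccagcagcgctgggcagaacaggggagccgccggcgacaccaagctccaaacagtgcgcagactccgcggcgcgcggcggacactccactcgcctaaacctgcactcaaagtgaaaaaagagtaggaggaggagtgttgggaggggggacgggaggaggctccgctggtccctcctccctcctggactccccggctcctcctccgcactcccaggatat

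The Sox2 window held 1 CCAAT box, 46 bases before the RefSeq start, and 2 GC boxes, while the Sox21 window held none of the 5 motifs. GC content was 72.0% and 65.2%, with 27 and 17 CpG dinucleotides against a median of 6. Promoter entries were matched for 8 of the 10 genes, and Sox3 and Sox9 were not matched.

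Both SoxD genes were measured at well over 1 TPM, and which of them was higher depended on the transcripts summed. Sox5, known for its part in the timing of deep-layer cortical neurons and in cartilage, spans chr6:143828425-144781977 (minus strand, ENSMUSG00000041540.12). It had 36.6 and 32.8 TPM (34.7 ± 2.73) from 1539 and 1299 counts. Sox6, which acts with Sox5 in cartilage and marks a set of midbrain dopamine neurons, spans chr7:115470872-116038796 (minus strand, ENSMUSG00000051910.9). It had 10.2 and 9.79 TPM (9.97 ± 0.255) from 1031 and 1153 counts. At gene level Sox5 was 3.61-fold and 3.35-fold above Sox6.

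Sox5 has 14 transcript models. Its 5 full-length coding models, of 6144 to 7243 bases in the deposited tables, held 67.1% and 63.0% of its reads but only 21.7% and 16.4% of its TPM. The short models took most of the TPM because TPM divides by length. TPM rests on the deposited lengths, while models were classed as coding by the later annotation. That annotation has shorter models for Sox5-202 (2526 against 7071 bases), Sox5-204 (1734 against 6144) and Sox5-205 (3879 against 7069). Sox5-208, a non-coding model of 351 bases, held 27.1% and 37.0% of Sox5 TPM on 46.3 and 65.8 counts, and Sox5-211, an incomplete coding model of 669 bases, 23.5% and 19.1% on 90.7 and 76.9 counts. Over full-length coding transcripts alone Sox5 was at 7.95 and 5.38 TPM (6.67 ± 1.82). All 5 Sox6 models are full-length coding, so on that basis Sox6 was 1.28-fold and 1.82-fold above Sox5. This order is the reverse of that at gene level, in both libraries. The reversal also leans on a short model, Sox6-203 of 2825 bases, with 4.46 and 3.96 TPM on 225 and 233 counts. Without that model Sox5 would stay above Sox6 in replicate 1.

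Sox5 had a log2 ratio between the pools of -0.43 (counting interval -0.54 to -0.32) and Sox6 of -0.02 (-0.14 to 0.10). By these counting intervals Sox5 was lower in replicate 2, and for Sox6 no difference was detectable at this depth. The TPM intervals of Sox5, 31.5 to 41.7 and 28.8 to 37.5, overlapped. Of the Sox5 coding models, Sox5-205 had 560 and 289 counts, Sox5-201 had 314 and 380, Sox5-202 had 159 and 149, and Sox5-204 and Sox5-214 had 0 in both. The deposited intervals of these models were wide, from 2.09 to 4.90 TPM in replicate 1 and from nearly 0 to 3.20 in replicate 2 for Sox5-205, so the split among them is weakly resolved.

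Although the Sox6 total hardly moved, the estimated shares of its transcripts differed between the pools. Only for Sox6-202 were the TPM intervals apart, so the split among the other models is weakly resolved. Sox6-203, a short model of 2825 bases, held 44.0% and 40.5% of Sox6 TPM, but on only 225 and 233 counts, fewer than Sox6-204 in both libraries. Sox6-202 held 27.6% in replicate 1 and 11.9% in replicate 2, on 419 and 204 counts, and its TPM intervals of 2.01 to 3.42 and 0.476 to 1.73 did not overlap. Sox6-204, from the most upstream start, held 21.5% and 32.5%, on 321 and 547 counts, with overlapping intervals of 1.36 to 2.69 and 2.34 to 3.74. Sox6-205 held 6.99% and 13.7%, and Sox6-201 had 0 and 24.5 counts. Each Sox6 model starts at a position of its own.

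**Figure D3:**
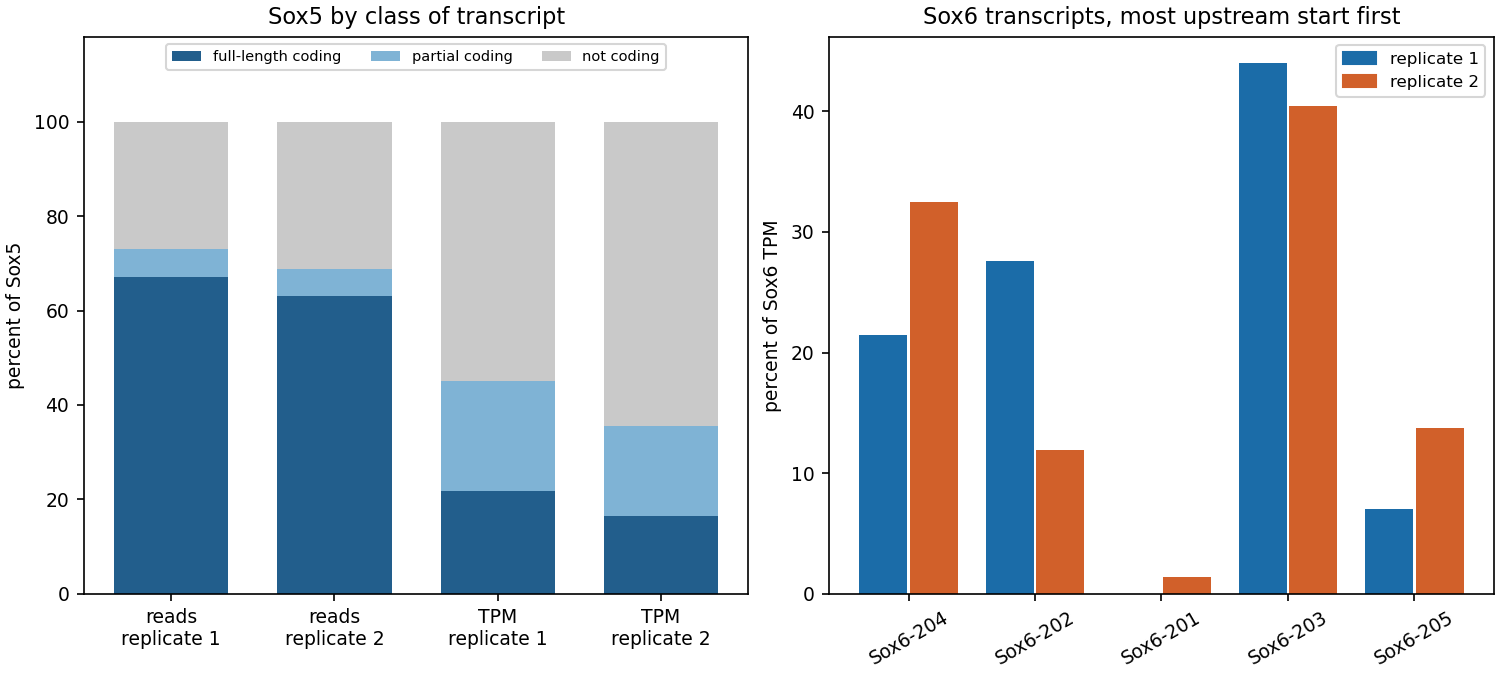
Left, percent of Sox5 reads (expected counts) and of Sox5 TPM held by full-length coding, partial coding and non-coding transcript models in each library; the full-length coding share is 67.1% and 63.0% of reads and 21.7% and 16.4% of TPM. Right, percent of Sox6 TPM of its 5 transcript models, ordered from the most upstream start, in replicate 1 (blue) and replicate 2 (orange); Sox6-202 is lower in replicate 2 and Sox6-204 higher.

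The windows before the starts of the 3 Sox6 models with the most reads are shown because their estimated shares differed between the pools or led the gene. All are on the minus strand, with motifs as above.
Sox6-204, chr7:116038745-116038994: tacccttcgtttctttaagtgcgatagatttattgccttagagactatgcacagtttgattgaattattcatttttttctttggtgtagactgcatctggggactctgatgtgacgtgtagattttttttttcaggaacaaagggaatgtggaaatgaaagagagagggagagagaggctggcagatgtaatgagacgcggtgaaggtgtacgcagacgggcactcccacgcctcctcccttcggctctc
Sox6-202, chr7:116031048-116031297: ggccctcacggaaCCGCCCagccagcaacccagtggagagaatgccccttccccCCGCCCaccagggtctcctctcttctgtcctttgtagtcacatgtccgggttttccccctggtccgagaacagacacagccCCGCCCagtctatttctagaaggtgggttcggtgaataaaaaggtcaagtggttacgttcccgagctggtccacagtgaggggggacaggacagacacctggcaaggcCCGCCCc
Sox6-203, chr7:115846141-115846390: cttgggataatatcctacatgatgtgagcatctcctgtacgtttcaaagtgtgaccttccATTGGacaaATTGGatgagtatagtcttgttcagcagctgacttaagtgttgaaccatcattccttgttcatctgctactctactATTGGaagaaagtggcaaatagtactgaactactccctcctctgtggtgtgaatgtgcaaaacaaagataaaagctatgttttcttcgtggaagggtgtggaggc

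The Sox6-202 window held 4 GC boxes at a GC content of 60.8%, the Sox6-203 window 3 CCAAT boxes at 41.6%, and the Sox6-204 window none of the 5 motifs at 45.2%. The Sox6-203 window ends at a RefSeq start 35 bases before that of the GENCODE model. The windows of Sox6-201 and Sox6-205, which had fewer reads, each held 2 SOX cores. A further Sox6 window, at a RefSeq start 23101 bases from the nearest GENCODE start, held 3 SOX cores, 1 CCAAT box and 1 TATA box.

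Sox9, the SoxE factor of radial glia and early astrocytes, was close to Sox5 in level, below it in replicate 1 and above it in replicate 2. It has 3 exons at chr11:112782224-112787760 (plus strand, ENSMUSG00000000567.5). It had 35.9 TPM in replicate 1 and 38.3 in replicate 2 (37.1 ± 1.72), from 2679 and 3333 counts. The log2 ratio between the pools was 0.13 (counting interval 0.06 to 0.21), so Sox9 was slightly higher in replicate 2, with overlapping TPM intervals of 33.5 to 36.1 and 36.0 to 38.5. Sox9 was 2.18-fold above Sox2 in replicate 1 and 3.75-fold in replicate 2.

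Set against each other within each library by gene-level TPM of the genes described, the groups kept their order. Each gene-level ratio given here had the same sign in both libraries. The log2 ratio of summed TPM was 5.0 ± 0.29 for SoxC over SoxB1, which is 27.8-fold and 37.0-fold. SoxC stood above SoxD by 3.46 ± 0.08 and above SoxE by 3.73 ± 0.24. SoxB1 stood below SoxE, at -1.27 ± 0.53, and below SoxD, at -1.54 ± 0.37. SoxD and SoxE were close, at 0.27 ± 0.16, and this sign rests on the short Sox5 models. With full-length coding transcripts only, SoxD over SoxE was -1.16 and SoxC over SoxD was 4.89. On that basis SoxB1 over SoxD was -0.11, positive in replicate 1 and negative in replicate 2.

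Of the other Sox genes, Sox14 stood above 8 of the 10 genes described, and Sox18 and Sox8 had higher means than Sox12. Sox14, a SoxB2 gene of midbrain and diencephalic GABAergic neurons, had 50.8 and 63.9 TPM (57.3 ± 9.31) and was 9.35-fold and 9.57-fold above Sox21. With Sox14 counted, SoxB2 summed to 63.4 ± 10.2 TPM and stood above SoxB1. With all genes of each group counted, SoxB2 (56.2 and 70.6 TPM) came next after SoxC in both libraries. It then stood above SoxD (53.0 and 47.0) and SoxE (47.1 and 55.1), so its last place holds only for the genes described. Sox8, a SoxE gene of glia, had 8.66 and 13.7 TPM, and the oligodendrocyte factor Sox10 had 2.56 and 3.11, so that Sox9 was the highest SoxE gene, 4.14-fold and 2.80-fold above Sox8. Sox13, the remaining SoxD gene, had 6.25 and 4.41 TPM. The SoxF genes of blood vessels were at 12.4 and 13.1 (Sox18), 6.76 and 5.82 (Sox17) and 4.11 and 5.06 (Sox7). Sox30, with 3 and 4 counts, and Sox15, with 0 and 2, were below 1 TPM, and Sry had 0 counts in both libraries, which allows up to 0.149 and 0.128 TPM at a limit of 3 counts. The 10 genes described held 85.5% ± 2.91 of the TPM of all 20 Sox genes, and SoxC alone 70.6% ± 3.27.

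Between the pools, 9 of the 10 genes passed a mean expected count of 50, and Sox3 did not. None of the 9 was at least 1.5-fold higher in replicate 2, against 2.13% of the 14412 genes that passed, and 1 was at least 1.5-fold lower, Sox2, against 1.33%. The TPM interval of replicate 2 lay wholly below that of replicate 1 for 3 of the 9, Sox2, Sox11 and Sox12, against 12.5% of all genes. It lay wholly above for 1 of the 9, Sox21, against 8.73%. By direction 3 were higher and 6 lower, with a median log2 ratio of -0.20. Of all 14412 genes 7483 were higher and 6929 lower, with a median of 0.01. Of the 7 other Sox genes that passed, 5 were higher and 2 lower, with a median of 0.31, and Sox8 was 1.63-fold higher.

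**Figure D4:**
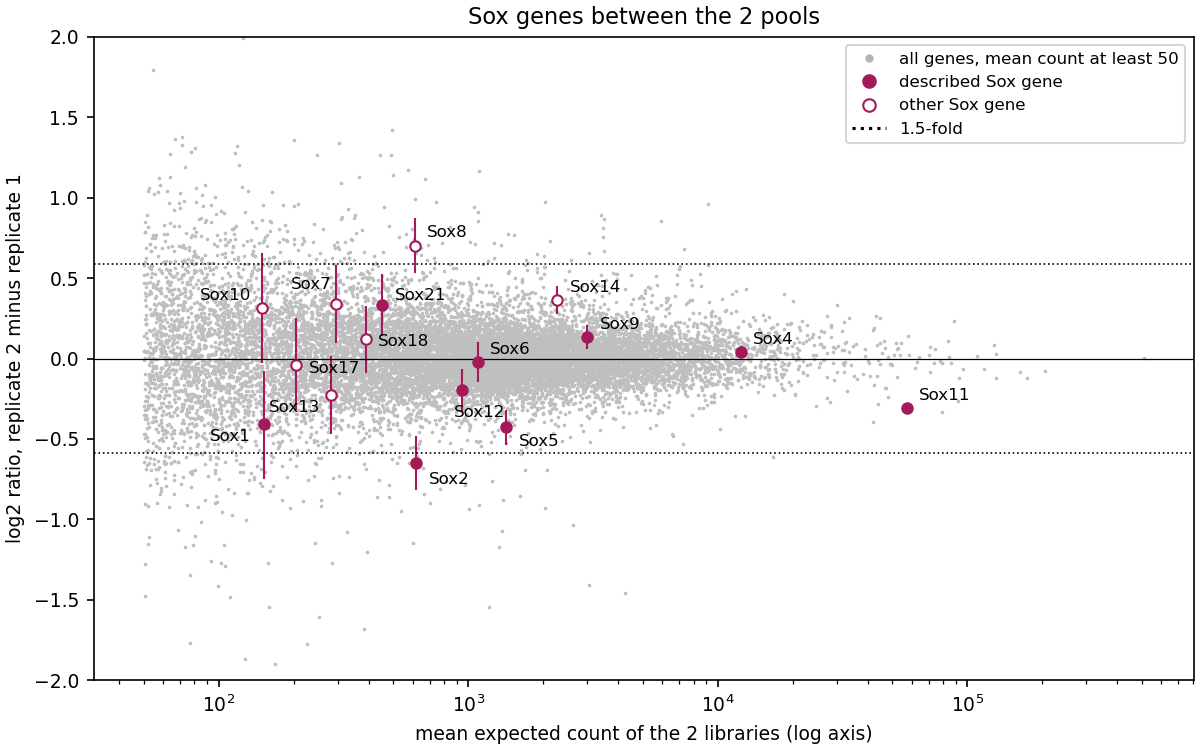
Log2 ratio of replicate 2 to replicate 1 from TMM-scaled counts against the mean expected count (log axis) for all genes with a mean count of at least 50 (grey), the Sox genes described (filled) and the other Sox genes (hollow), with 95% counting intervals as vertical lines; dotted lines mark 1.5-fold, and 17 genes beyond a log2 ratio of 2 either way are not drawn. Sox2 lies below the lower line and Sox8 above the upper line, and Sox11 sits at -0.31 among the most deeply counted genes.

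Marker genes of progenitors, neurons and glia were set beside the Sox ratios, with 7483 of all 14412 genes higher and 6929 lower for comparison. All 10 cell cycle genes were lower in replicate 2, with a median log2 ratio of -0.39 and 1, Mki67 (3.65 and 2.27 TPM), at least 1.5-fold lower, against 1.33% of all genes. The list was led in level by Pcna (80.0 and 73.5) and Cdk1 (41.5 and 26.4). Of 9 neuron commitment genes 8 were lower (median -0.34), with Neurog2 (14.3 and 4.34) and Neurod1 (19.2 and 10.7) at least 1.5-fold lower, against the same 1.33%. The list was headed by Hes6 (146 and 128) and Btg2 (29.5 and 22.7). Progenitor and radial glia genes were divided, 4 higher and 6 lower (median -0.10), with Fabp7 higher (1253 and 1565) and Vim lower (311 and 259) in replicate 2. Of 8 astrocyte genes 7 were higher, 5 of them by at least 1.5-fold against 2.13% of all genes (median 0.63), headed by Apoe (296 and 566) and Sparcl1 (121 and 176). Of the 9 Sox genes, Sox2, Sox5, Sox1, Sox11, Sox12 and Sox6 had ratios below 0 and Sox21, Sox9 and Sox4 above 0, with Sox4 below 0 once the reads of Gm26735 are added. The summed level was 272 and 210 TPM for the cell cycle list, 2136 and 2337 for the progenitor list and 636 and 1062 for the astrocyte list, and their part in the Sox ratios was not tested.

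**Figure D5:**
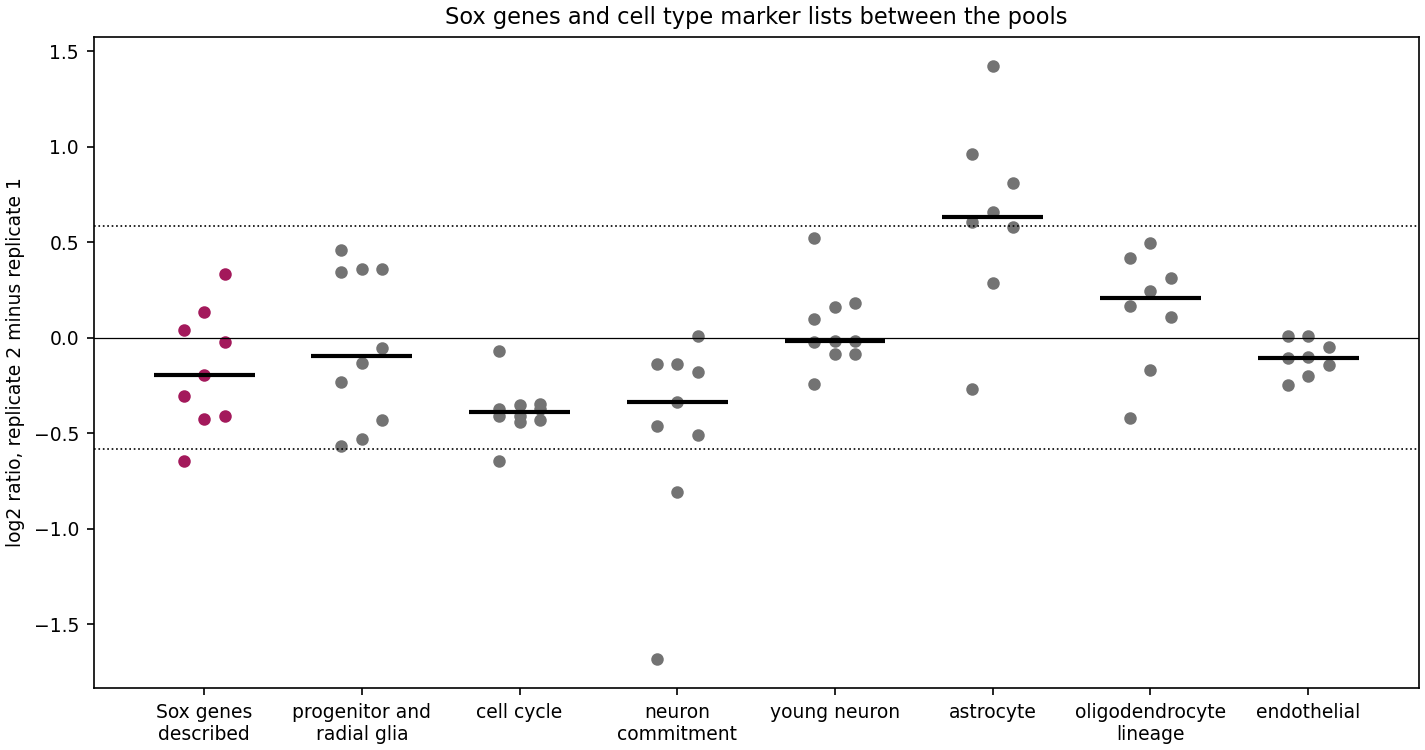
Log2 ratio of replicate 2 to replicate 1 from TMM-scaled counts for the 9 Sox genes with a mean count of at least 50 (red) and for the genes of 7 marker lists that passed the same filter (grey), 1 point a gene, with the median as a bar and dotted lines at 1.5-fold. The medians are -0.20 for the Sox genes, -0.39 for the cell cycle list and 0.63 for the astrocyte list.

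Young neuron genes, in which SoxC factors are known to act, differed little, with a median of -0.02 (4 higher, 6 lower), led by Tubb3 (1816 and 1744 TPM) and Gap43 (1506 and 1661). The oligodendrocyte lineage list had a median of 0.20 (6 of 8 higher), headed by Olig1 (79.7 and 109) and Mbp (17.7 and 19.3). Endothelial genes, where SoxF factors act, had -0.11 (2 higher, 6 lower), with Cldn5 at 88.5 and 86.6 TPM and Esam at 35.5 and 32.4. Cartilage, where Sox9, Sox5 and Sox6 also act, was checked as another possible source of these transcripts. Of 8 cartilage genes 3 reached 1 TPM in both libraries, Col2a1 (29.5 and 18.8), Col11a2 (3.09 and 3.74) and Col9a1 (1.47 and 1.53), while Acan, Comp, Matn1, Ucma and Hapln1 were below 1 in both. The erythroid list, led by Hba-a2 and Hbb-bs, had a median of -0.17, the choroid plexus list, led by Ttr and Otx2, -0.08, and the microglia list, led by C1qb and C1qa, 0.16. For the midbrain territory list the median was 0.19, with 6 of 7 genes higher and 1 at least 1.5-fold higher, against 2.13% of all genes.

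Partners and genes linked to the Sox groups were all at hand for comparison, in lists that share some members. All 10 POU and SoxB partner genes reached 1 TPM in both libraries, with a median log2 ratio of -0.12 (4 higher, 6 lower). The chromatin remodeller Chd7, a Sox2 partner, led the list at 38.4 and 27.6 TPM, and the POU factor Pou3f2 followed at 28.2 and 29.6. The SoxC-linked genes had a median of -0.17 (2 higher, 8 lower), and 2 of the 10 were at least 1.5-fold lower in replicate 2, against 1.33% of all genes, Prox1 (28.0 and 13.1 TPM) and Neurod1, both named after their values were seen. This list was led by Stmn1 (7228 and 6475) and Tubb3. The SoxD-linked genes, led by the dopamine neuron factor Nr4a2 (34.2 and 21.7) and Col2a1, had a median of -0.23, with 6 of 7 lower. At 1.5-fold, Nr4a2 was lower, against 1.33% of all genes, and Th, the enzyme of dopamine synthesis, was higher (15.1 and 24.0), against 2.13%. The SoxE-linked genes had a median of 0.24 (7 higher, 3 lower), led by Slc1a3, the glutamate transporter of radial glia and astrocytes (89.8 and 119), and Mmd2 (43.7 and 61.1). No list was tested, and their medians stand beside that of all genes, 0.01.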

How the data were processed

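Per the deposited readme, alignment was to mm10 and to its transcripts, and quantification used GENCODE M4 plus spike-ins. Aligner and quantifier were not given in the sources used here. Per the file headers, the deposited expected counts are estimated reads per gene or transcript, not normalized. The deposited TPM values, per the file headers, are corrected for effective length and scaled to a fixed total per library, spike-ins included (3.74% and 5.47% of TPM). The deposited FPKM values, per the file headers, are per length and per library reads. Per the file headers, the deposited transcript share is in percent of gene TPM. The deposited bounds of TPM are a signal range (a credibility interval whose level is not stated).

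Symbols and coordinates came from GENCODE M21 (GRCm38), joined by Ensembl identifier without version; 884 of 43346 identifiers had no match. Of 69691 entries, 26248 named by number only were kept apart. Pool ratios were computed after adding 0.5 to the expected counts and scaling with TMM (edgeR 4.0.16), and were read where the mean count was 50 or more; DESeq2 1.42.0 size factors were an alternative, and both used counts rounded to whole numbers. The 1.5-fold threshold was run on simulated counts with an assumed spread, where the true changes were larger than 1.5-fold. Changes near 1.5-fold were not simulated. Promoter windows came from RefSeq (GRCm38.p6). Calculations ran in R 4.3.3 and Python 3.11.15 (pandas 2.3.3, matplotlib 3.10.9, numpy 2.4.6, scipy 1.17.1).

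The 10 genes, the lists and the thresholds were chosen with earlier results of these data known. Named were all 10 genes, the other Sox genes, the 2 highest genes by mean TPM of each list, list genes below 1 TPM in both libraries and overlapping genes, of which 1 list gene is not reported here; Col11a2, Col9a1, Prox1, Neurod1, Neurog2, Mki67 and Th were named after their values were seen. No p-value can be had with 1 group.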

Additional observations from a re-analysis of the deposited data

How the results depend on the processing

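No paired analysis was possible because the samples form 1 group. Leaving out each replicate in turn gave SoxC over SoxB1 from 4.80 to 5.21 (log2 of summed TPM), SoxC over SoxD 3.41 to 3.52, SoxC over SoxE 3.56 to 3.90, SoxB1 over SoxE -1.65 to -0.90, SoxD over SoxE 0.15 to 0.38, SoxB1 over SoxD -1.80 to -1.28 and SoxB1 over SoxB2 0.87 to 1.83. The share of Sox12-202 ran from 82.6% to 85.6%, of Sox5-208 from 27.1% to 37.0% and of Sox6-203 from 40.5% to 44.0%. With expected counts, which are not corrected for length, SoxC over SoxB1 was 6.48, SoxC over SoxD 4.81, SoxC over SoxE 4.56, SoxB1 over SoxE -1.92, and SoxD over SoxE turned to -0.25. Alternatives added after seeing the data were full-length coding transcripts, all genes of each Sox group, and reads of the antisense genes added. Full-length coding transcripts gave SoxC over SoxD 4.89 and SoxD over SoxE -1.16, a turned sign. They gave SoxB1 over SoxD -0.11, positive in replicate 1 and negative in replicate 2. All genes of each group gave SoxC over SoxD 3.30 and SoxC over SoxE 3.27, and turned SoxB1 over SoxB2 to -2.04, since Sox14 joins SoxB2. SoxD over SoxE was then -0.030, positive in replicate 1 (53.0 against 47.1 TPM) and negative in replicate 2 (47.0 against 55.1). With antisense reads the SoxC ratio between pools was -0.29, and from TPM the SoxD ratio was -0.14. Genes at least 1.5-fold higher in replicate 2 numbered 307, and 3733 with no filter, 905 at a mean count of at least 10 and 51 at 2-fold; those lower numbered 191, 3313, 686 and 42. FPKM and posterior mean TPM kept the order of the 10 genes, and full-length coding transcripts changed the place of 4. Depth limits Sox3, at 35 and 26 counts, most.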
